A study of Homo sapiens with 8 samples.

Results

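The comparison set cells given a plasmid for the GATA3 variant TR2 against cells given a plasmid for the variant TR1. Both variants are truncated forms of GATA3 with an HA tag. The cells were T47D, an established luminal breast cancer line that expresses the estrogen and progesterone receptors and its own GATA3. There were 4 libraries in the comparison, TR2 replicates 1 and 2 and TR1 replicates 1 and 2, out of 8 RNA-seq libraries in all. The other 4 came from T47D cells with a control plasmid (labelled EV, 2 libraries) and from T47D cells with HA-tagged wild-type GATA3 (2 libraries), and they are given beside the results. All genes with a normalized count of 10 or more in at least 2 of the 8 libraries were compared, which left 14881 of the 28859 gene symbols in the table. The labels do not give the position at which either variant ends, the promoter of the plasmids, the time after introduction or whether a line was 1 clone. Whether the replicates of a group are separate cultures is not stated either, so the p-values measure only the spread between these libraries, which may be technical.

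GATA3 is a zinc finger transcription factor that binds DNA at GATA sites and maintains the luminal identity of mammary epithelial cells. In luminal breast cancer it acts beside the estrogen receptor and FOXA1, and it is one of the genes most often mutated in that disease, largely by frameshift and splice changes that shorten or alter the end of the protein.

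The libraries held 13292861 to 19572394 reads on genes. TR1 replicates 1 and 2 held 16970383 and 19572394 reads, and TR2 replicates 1 and 2 held 18154045 and 17377907. The luminal markers ESR1, PGR, GATA3, FOXA1, KRT8, KRT18, KRT19, EPCAM and CDH1 were read in all 8 libraries. The TR1 libraries stood further apart from each other than the libraries of any other group. Over 10424 genes with a mean normalized count of 100 or more over the 8 libraries, the log2 differences between replicate libraries had an SD of 0.383 for TR1, against 0.133 for TR2, 0.169 for the control and 0.119 for wild type. In TR1, 501 of these genes were at least 2-fold higher in replicate 2 and 0 were at least 2-fold lower, while TR2 had 0 in either direction. The difference moved with the GC content of the transcripts. The genes were put into 4 classes of 2466 by GC content. In the class lowest in GC (29.4% to 42.1%), the median of TR1 replicate 2 minus replicate 1 was 0.50 on the log2 scale, and in the other 3 classes it was -0.06, -0.14 and -0.13. For TR2 the same 4 medians lay between -0.04 and 0.10. In the class lowest in GC, 11 genes (0.446%) passed the comparison of TR2 with TR1 described below. In the other 3 classes 1.54%, 1.99% and 1.62% passed. The part of GC content in the comparison was not tested beyond a fit with its trend removed, whose counts are given with the other settings. A log2 difference given without library values, as for MS4A15, HLF and KCNF1, does not show the gap between the TR1 libraries.

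**Figure D1:**
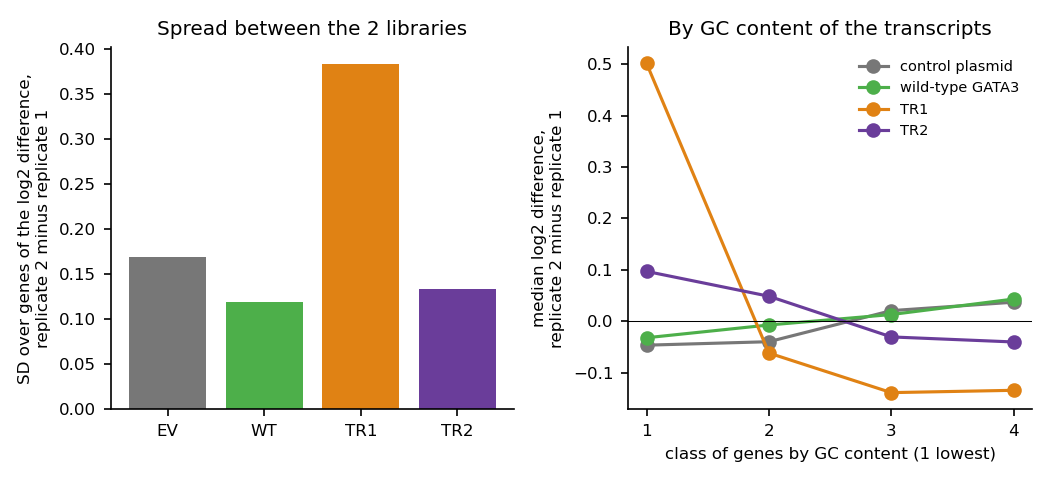
Left, the SD over 10424 genes of the log2 difference between the 2 libraries of each group (EV, control plasmid; WT, wild-type GATA3). Right, the median of that difference, replicate 2 minus replicate 1, in 4 classes of genes by GC content; each point is a median over 2466 genes, and the TR1 line starts at 0.50 while the other 3 lines stay between -0.05 and 0.10.

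TR2 and TR1 cells differed in a small set of genes. With limma's moderated test, fitted to all 8 libraries together and adjusted over all genes by the Benjamini-Hochberg method, 181 genes (1.22% of those tested) had an adjusted p under 0.05. Of these, 87 were higher with TR2 (0.585%) and 94 were lower with TR2 (0.632%). The median log2 difference, TR2 minus TR1, was 0.82 in the former and -1.08 in the latter, against -0.01 over all genes tested. A change of at least 2-fold was seen in 75 of the 181, 25 higher and 50 lower. The TR2 and TR1 libraries did not overlap for any of the 181, but this held for 5118 genes in all (34.4%). At an unadjusted p under 0.05 there were 1497 genes. Among the 3691 genes with a mean normalized count of 1000 or more over the 4 libraries, 51 passed (1.38%), 20 higher and 31 lower. The count depended on single libraries. It rose to 1577 without TR1 replicate 1 (405 higher, 1172 lower) and to 1260 without TR1 replicate 2 (890 higher, 370 lower), and it fell to 30 and 29 without TR2 replicate 1 or 2 and to 107 and 106 without wild-type replicate 1 or 2. The fit takes 1 spread per gene for all 4 groups. The 181 calls and the SEs thus draw on groups whose libraries lie closer together than those of TR1. With only the TR1 and TR2 libraries 59 genes passed (11 higher, 48 lower), and with library weights by group 98 passed. With a TR1 library left out, the remaining one is assumed to vary like the other groups. A call kept or gained there is thus no sign of stability. The tallies over alternative settings given below still include the fits without TR1 replicate 1 or 2. Of the 67 genes past the threshold that the selection rule names, 20 kept the call without TR2 replicate 1 or 2, 50 without control replicate 1 or 2 and 48 without wild-type replicate 1 or 2.

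**Figure D2:**
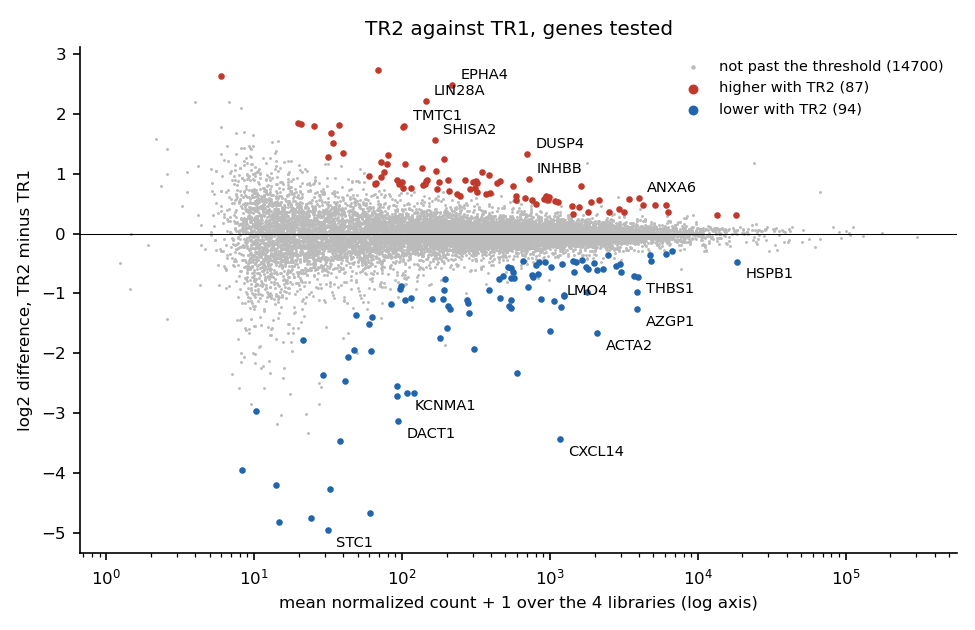
Each point is 1 of the 14881 genes tested: its mean normalized count plus 1 over the 2 TR1 and 2 TR2 libraries (log axis) against the log2 difference, TR2 minus TR1. The 87 genes past the threshold and higher with TR2 are red and the 94 lower with TR2 are blue; the falls reach further from 0 than the rises, and CXCL14 lies well below genes of like level.

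GATA3 itself (chr10:8045378-8075203, + strand) had normalized counts of 9506 and 8638 in the TR1 libraries and 10235 and 10588 in the TR2 libraries. The TR2 libraries were the higher, without overlap, and both groups lay below the control libraries (13726 and 12676) and the wild-type libraries (13555 and 13833). The difference of 0.20 ± 0.07 (log2, SE, n = 2 libraries per group) did not pass the test (limma, adjusted p = 0.295). Without TR1 replicate 1 the log2 difference was 0.27. These values count reads over the whole gene, so transcripts of the cell's own gene and of the plasmid were not told apart.

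The gene with the smallest adjusted p was EPHA4, an ephrin receptor tyrosine kinase of cell contact signalling (chr2:221418027-221574202, - strand). Its normalized counts were 67.9 and 62.7 with TR1 and 365 and 372 with TR2. The TR2 libraries were 5.58-fold higher (log2 difference 2.48 ± 0.10, limma adjusted p = 2.41e-05), and remained below the control libraries at 971 and 893. LIN28A, an RNA-binding protein that blocks maturation of let-7 microRNAs, had 61.1 and 41.0 in the TR1 libraries and 250 and 221 in the TR2 libraries (log2 difference 2.21 ± 0.17, adjusted p = 0.000611). TMTC1, an enzyme of protein O-mannosylation, went from 44.6 and 46.0 to 154 and 165 (1.79 ± 0.10, adjusted p = 0.000111). In both genes the TR1 and TR2 libraries were well apart, and the wild-type libraries were the highest of all, at 707 and 692 for LIN28A and at 1399 and 1365 for TMTC1. SLC24A3, a sodium, potassium and calcium exchanger, rose from 45.6 and 44.3 to 146 and 167 (1.77 ± 0.12, adjusted p = 0.000339). SHISA2, an endoplasmic reticulum protein that holds back Wnt and FGF receptors, rose from 84.4 and 82.0 to 251 and 243 (1.56 ± 0.09, adjusted p = 0.00016). All 5 of these genes stayed past the threshold in each of 20 alternative settings, those without 1 library included.

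Others of the 12 largest rises by the selection rule started from lower levels. ADAMTS15, a secreted metalloprotease, had 13.6 and 17.6 with TR1 and 53.9 and 60.3 with TR2 (1.82 ± 0.19, limma adjusted p = 0.00285). CNTFR, the receptor subunit for ciliary neurotrophic factor, had 10.7 and 10.04 with TR1 and 40.5 and 36.2 with TR2 (1.79 ± 0.18, adjusted p = 0.00285). PLXDC2, a transmembrane plexin-domain protein, had 15.5 and 17.6 with TR1 and 44.9 and 53.8 with TR2 (1.52 ± 0.18, adjusted p = 0.00593). TR2 libraries were above TR1 libraries in each, and below both control libraries. MS4A15, HLF (a PAR bZIP transcription factor) and HS6ST3 (a heparan sulfate sulfotransferase) rose by 1.84, 1.82 and 1.68 on the log2 scale. HLF passed in only 7 of the 19 alternative settings that tested it and HS6ST3 in 6 of 20, both being lost also without any 1 control or wild-type library. Without TR2 replicate 1, 6 of the 12 rises lost the call, among them CNTFR, HLF, HS6ST3, MS4A15 and PLXDC2 (limma adjusted p 0.0524 to 0.279 over the 6). Without TR2 replicate 2, ADAMTS15 was lost in place of CNTFR (0.0522 to 0.408 over the 6).

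The largest changes were falls, and several were of genes at or near 0 reads in the control and wild-type libraries. CXCL14, a chemokine of epithelial tissues (chr5:135570679-135579279, - strand), had normalized counts of 2283 and 1997 with TR1 and 203 and 192 with TR2. The TR2 libraries were 10.8-fold lower (log2 difference -3.43 ± 0.19, limma adjusted p = 0.000111), yet stood above the control libraries at 12.9 and 15.9 and the wild-type libraries, both at 0. DACT1, an inhibitor of Wnt signalling, had 180 and 156 with TR1 and 17.1 and 19.5 with TR2 (-3.13 ± 0.43, adjusted p = 0.0118). SFRP1, a secreted Wnt antagonist, had 123 and 107 with TR1 and 4.49 and 2.78 with TR2 (-4.67 ± 0.50, adjusted p = 0.00319). The control and wild-type libraries had at most 1.22 for both Wnt genes. DCN, the matrix proteoglycan decorin, had 64.0 and 58.6 with TR1 and 2.70 and 1.86 with TR2 (-4.26 ± 0.46, adjusted p = 0.00319), with 0 reads in the other 4 libraries. The TR2 libraries held only 3 and 2 reads of DCN, so the size of its fall is limited by counting. GRM4, a metabotropic glutamate receptor, had 155 and 162 with TR1 and 19.8 and 27.8 with TR2 (-2.71 ± 0.31, adjusted p = 0.00415), near its control libraries at 20.4 and 24.4.

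Where TR2 libraries held few reads, the size of the fall is limited by counting. STC1, the secreted glycoprotein stanniocalcin, had 61 and 71 reads with TR1 and 0 and 3 with TR2, a ratio of TR1 to TR2 of 43.3 (95% exact counting interval 14.5 to 213, counting error only). SLC6A14, an amino acid transporter, had 36 and 67 reads with TR1 and 0 and 2 with TR2, a ratio of 50.7 (13.7 to 424). For MMRN1, a multimerin of platelets and endothelium, 18 and 40 reads stood against 1 and 0. IRF8, an interferon regulatory factor, had 20 and 18 reads against 2 and 1. DPYS, an enzyme of pyrimidine breakdown, and TIMP3, an inhibitor of metalloproteases, had 0 reads in both TR2 libraries, and at a floor of 3 reads per library the fall was at least 9.94-fold for DPYS and at least 5.27-fold for TIMP3. RIMS2, a presynaptic scaffold, had 60.1 and 76.1 normalized counts with TR1 and 7.19 and 3.71 with TR2. These 7 genes had limma adjusted p from 0.00415 (DPYS) to 0.0416 (IRF8). Without TR1 replicate 1 the calls of IRF8 (0.12) and TIMP3 (0.056) were lost, and without TR1 replicate 2 those of IRF8 (0.0815) and MMRN1 (0.0585). IRF8 passed in only 6 of the 19 settings that tested it. Without TR2 replicate 1, 9 of the 12 largest falls lost the call (adjusted p 0.0509 to 0.187), and CXCL14, SFRP1 and DCN did not. Without TR2 replicate 2, 8 did (0.052 to 0.291), and CXCL14, STC1, SLC6A14 and GRM4 did not.

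The promoters of 4 of these genes are shown because they belong to the rise and the fall with the smallest adjusted p (EPHA4 and CXCL14), and to 2 genes lower with TR2 that hold a GATA motif (SLC6A14 and LGALS3BP, a secreted glycoprotein described below). Each is the 250 bases before the RefSeq start site (GRCh38.p14), 5′ to 3′ on the strand of the gene, with any GATA motif on either strand in capitals. The motif was searched as AGATAA, also with T as the first letter (TGATAA), with G as the last (AGATAG), or with both changes (TGATAG). EPHA4 has 2 start sites in the table and the window is before the one at the outer end of the gene. The CXCL14 window lies inside the gene coordinates given above, which come from GENCODE and begin further out than the RefSeq start site. Bases before that outer start were not searched.
EPHA4: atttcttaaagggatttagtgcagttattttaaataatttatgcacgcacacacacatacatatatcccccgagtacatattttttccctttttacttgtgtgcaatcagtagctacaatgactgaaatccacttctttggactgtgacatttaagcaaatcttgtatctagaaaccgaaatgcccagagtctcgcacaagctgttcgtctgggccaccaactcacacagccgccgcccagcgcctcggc
CXCL14: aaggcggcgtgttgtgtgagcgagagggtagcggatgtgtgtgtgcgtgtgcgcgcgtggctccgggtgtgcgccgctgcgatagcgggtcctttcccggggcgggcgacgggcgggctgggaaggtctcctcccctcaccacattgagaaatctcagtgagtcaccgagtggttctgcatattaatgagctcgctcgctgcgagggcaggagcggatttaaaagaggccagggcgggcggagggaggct
SLC6A14: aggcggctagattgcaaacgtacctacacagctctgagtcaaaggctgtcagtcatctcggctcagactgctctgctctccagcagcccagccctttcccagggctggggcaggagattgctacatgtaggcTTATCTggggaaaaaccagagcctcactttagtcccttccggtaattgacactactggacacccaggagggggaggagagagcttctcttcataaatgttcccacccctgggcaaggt
LGALS3BP: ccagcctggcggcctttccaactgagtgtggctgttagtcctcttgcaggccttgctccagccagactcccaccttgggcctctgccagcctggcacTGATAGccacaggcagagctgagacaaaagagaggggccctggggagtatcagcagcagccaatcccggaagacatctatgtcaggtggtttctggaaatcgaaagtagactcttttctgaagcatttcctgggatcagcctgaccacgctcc
The windows are chr2:221574203-221574452 (- strand), chr5:135578992-135579241 (- strand), chrX:116436356-116436605 (+ strand) and chr17:78979924-78980173 (- strand). The EPHA4 and CXCL14 windows held none of these letters. SLC6A14 held 1 match on the reverse strand, read as TTATCT, whose first base lies 118 bases before the start, and LGALS3BP held TGATAG at 153 bases before the start. Of 27305 promoters of this length in the table, 6254 held at least 1 match (22.9%), and of the 9928 that belong to genes tested, 1291 did (13%). The table held a promoter for only 60 of the 87 higher and 69 of the 94 lower genes, of which 6 (10%) and 7 (10.1%) held a match. With so many promoters missing a comparison of these shares is void. The windows of SLC6A14 and LGALS3BP were picked for their match and do not stand for the genes lower with TR2.

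Among genes with a mean of 1000 or more normalized counts over the 4 libraries, the largest changes were falls. ACTA2, the smooth muscle actin of myoepithelial and contractile cells (chr10:88935074-88991339, - strand), had 3342 and 3001 with TR1 and 1042 and 955 with TR2. It was 3.17-fold lower with TR2 (log2 difference -1.67 ± 0.09, limma adjusted p = 0.000114) and level with the control libraries at 1008 and 943. AZGP1, the zinc-binding glycoprotein of apocrine secretion (chr7:99966720-99976157, - strand), had 5768 and 5255 with TR1 and 2270 and 2318 with TR2 (-1.26 ± 0.08, adjusted p = 0.000188). Here the TR2 libraries stayed above the control libraries at 275 and 261. S100A1, a calcium-binding protein, had 1722 and 1646 with TR1 and 802 and 831 with TR2 (-1.04 ± 0.08, adjusted p = 0.00059). SLC22A23, an organic ion transporter, had 1704 and 1608 with TR1 and 829 and 805 with TR2 (-1.02 ± 0.09, adjusted p = 0.00148). In each the TR2 libraries lay below the TR1 libraries and above both control libraries. KCNF1, a potassium channel subunit, fell by 1.13 on the log2 scale, and ALDH1A3, a retinaldehyde dehydrogenase that makes retinoic acid, fell by 0.98 as the 1 of 15 retinoic acid genes to pass. KCNF1 lost the call without TR2 replicate 1 (adjusted p = 0.0509) or 2 (0.0644), and ALDH1A3 without TR2 replicate 1 (0.0519). With CXCL14, these were 7 of the 8 largest falls in this class, and CXCL14, ACTA2, AZGP1, S100A1 and SLC22A23 stayed past the threshold in all 20 settings.

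**Figure D3:**
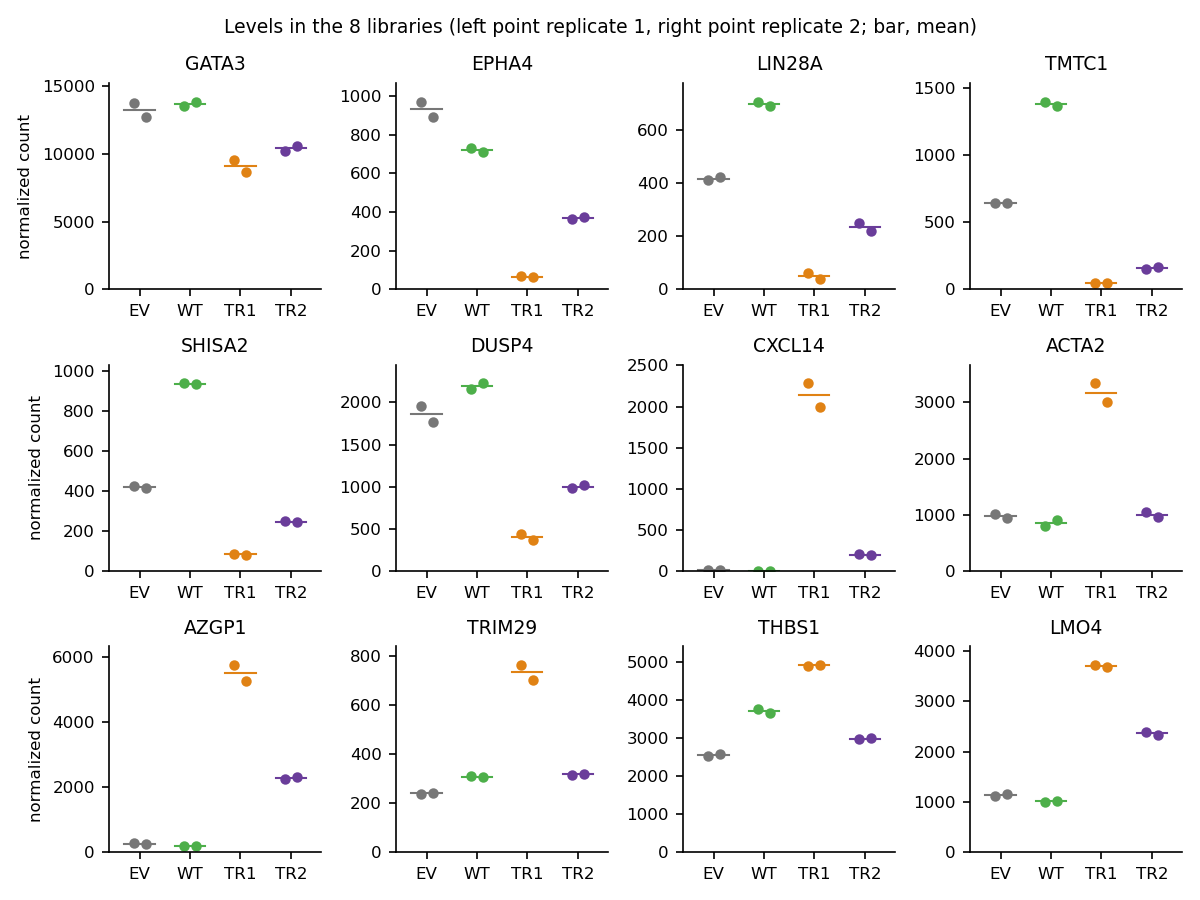
Normalized counts of 12 genes in the 8 libraries, by group (EV, control plasmid; WT, wild-type GATA3); each point is 1 library, left replicate 1 and right replicate 2, and the bar is their mean. EPHA4, LIN28A, TMTC1, SHISA2 and DUSP4 are higher with TR2 than with TR1, and CXCL14, ACTA2, AZGP1, TRIM29, THBS1 and LMO4 are lower, with no overlap; GATA3 (log2 difference 0.20) did not pass the test.

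The rises among abundant genes were smaller. PREX1, an exchange factor for the GTPase Rac, had 1251 and 1118 with TR1 and 2004 and 2092 with TR2 (log2 difference 0.79 ± 0.08, limma adjusted p = 0.00309). ANXA6, a calcium-dependent membrane-binding annexin, had 3381 and 2993 with TR1 and 4935 and 4654 with TR2 (0.59 ± 0.07, adjusted p = 0.00585). TGFB3, a ligand of the TGF-beta family, had 918 and 843 with TR1 and 1316 and 1263 with TR2 (0.55 ± 0.07, adjusted p = 0.00822). In all 3 the TR2 libraries lay above the TR1 libraries and below the control libraries. THSD4, PAPSS2 (which makes the sulfate donor PAPS), PXMP4 (a peroxisomal membrane protein), SOD3 (the extracellular superoxide dismutase) and S100A6 rose by 0.48 to 0.58 on the log2 scale (adjusted p 0.0153 to 0.0485). None of the 8 stayed past the threshold without TR2 replicate 1 (limma adjusted p 0.0509 to 0.261) or without TR2 replicate 2 (0.0614 to 0.417). With no trend in the prior variance, and with only the TR1 and TR2 libraries, 1 of the 8 did, and without wild-type replicate 1 or 2, 4 did.

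Of the transcription factors that work with GATA3, LMO4, a LIM-only cofactor that bridges transcription factor complexes, was the 1 of 15 tested GATA factors and cofactors that passed. Its normalized counts were 3722 and 3670 with TR1 and 2391 and 2328 with TR2 (log2 difference -0.65 ± 0.06, limma adjusted p = 0.00212). The TR2 libraries lay between the TR1 libraries and the control libraries at 1118 and 1160, and without TR2 replicate 2 the adjusted p was 0.0522. Of 27 luminal transcription factors tested, 2 rose and 0 fell (list median 0.05). Over all genes tested, 0.585% were past the threshold and higher with TR2, and 0.632% were lower. The list counts here and below stand beside those shares. TFAP2B, an AP-2 factor, had 163 and 147 with TR1 and 253 and 258 with TR2 (0.72 ± 0.11, adjusted p = 0.0189). SPDEF, an ETS factor of secretory epithelium, had 2706 and 2338 with TR1 and 3374 and 3329 with TR2 (0.41 ± 0.08, adjusted p = 0.0446). FOXA1, the pioneer factor of luminal cells, had 6984 and 6630 with TR1 and 7469 and 8085 with TR2 and did not pass (0.19 ± 0.07, adjusted p = 0.344). ESR1, the estrogen receptor, also did not pass (-0.13, adjusted p = 0.66). Among 33 estrogen-responsive genes, PDZK1 (0.89) and IGFBP5 (0.31) rose and STC2 (-0.29) fell (list median 0.00), and of 19 progestin-responsive genes none passed. These 5 genes lost the call without either TR2 library, and TFAP2B passed in 14, PDZK1 in 13, and SPDEF, IGFBP5 and STC2 in 8 each of 20 alternative settings.

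Secreted products of apocrine and secretory epithelium were the list with the most falls. Of 17 tested, 4 fell and 0 rose, or 23.5% past the threshold against 1.22% of all genes tested. The list median was -0.32 beside -0.01 for all genes. The lists were written with earlier results of these data known, so these shares are a description with no test. The falls were AZGP1, STC1, STC2 and PIP, the prolactin-induced protein of apocrine secretion. STC1 had normalized counts of only 0 and 2.78 with TR2, and STC2 passed in 8 of 20 alternative settings. PIP had 881 and 959 with TR1 and 455 and 544 with TR2 (log2 difference -0.88 ± 0.13, limma adjusted p = 0.0169), and 121 and 101 in the control libraries. Of 31 netrin, semaphorin and slit guidance genes, 3 fell and 0 rose (median -0.10). NTN4, a netrin of basement membranes, had 1146 and 1230 with TR1 and 530 and 581 with TR2 (-1.10 ± 0.15, adjusted p = 0.0109). ROBO2, a Slit receptor, fell by 0.75 and PLXNA1, a plexin receptor of semaphorins, by 0.50 on the log2 scale. With the trends of length and GC content removed, the adjusted p of ROBO2 was 0.242. PIP, NTN4, ROBO2 and PLXNA1 lost the call without either TR2 library, and they passed in 16, 17, 10 and 16 of 20 alternative settings.

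In the lists of mesenchymal state, basal, keratin and collagen genes, the members that passed were lower with TR2. In those of metalloproteases and integrins, ADAMTS15 and ITGA10 were higher. Of 21 mesenchymal state genes tested, ACTA2 and THBS1 fell and 0 rose (list median -0.25). THBS1, the matrix glycoprotein thrombospondin, had 4892 and 4919 with TR1 and 2974 and 2991 with TR2 (log2 difference -0.72 ± 0.06, limma adjusted p = 0.00059), with the control libraries at 2530 and 2573. VIM, the mesenchymal intermediate filament vimentin, had 44.6 and 36.0 with TR1 and 20.7 and 14.9 with TR2 and did not pass (-1.15 ± 0.39, adjusted p = 0.315). FN1, fibronectin, had 847 and 736 with TR1 and 572 and 582 with TR2 and did not pass (-0.45 ± 0.10, adjusted p = 0.0741). Its log2 difference was -0.35 without TR1 replicate 1 and -0.55 without TR1 replicate 2. CDH1, the epithelial cadherin, differed little between groups (8377 and 7974 with TR1, 7627 and 8136 with TR2, -0.05 ± 0.06, adjusted p = 0.913), and none of 40 epithelial junction and polarity genes passed. ZEB1, a repressor of CDH1, had at most 1.94 normalized counts in any library and was not tested. SNAI2 was not analysed here.

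Of 16 basal and myoepithelial genes, ACTA2 and TRIM29 fell and 0 rose (median -0.08). TRIM29, a tripartite motif protein of basal cells, had 763 and 701 with TR1 and 315 and 320 with TR2 (log2 difference -1.20 ± 0.09, limma adjusted p = 0.00059). KRT15, a keratin of basal epithelium and the only one of 10 keratins to pass, had 319 and 284 with TR1 and 123 and 80.7 with TR2 (-1.58 ± 0.22, adjusted p = 0.012). TRIM29 held in all 20 settings and KRT15 in 17. KRT15 was lost with no trend in the prior variance, with only the TR1 and TR2 libraries, and without TR2 replicate 2. KRT8, a luminal keratin, did not pass (-0.22 ± 0.07, adjusted p = 0.229), and its log2 difference was -0.28 without TR1 replicate 2. Of 30 collagens and matrix proteoglycans, DCN fell and 0 rose. Of 19 MMP, ADAMTS and TIMP genes, TIMP3 fell and ADAMTS15 rose. ITGA10, a collagen-binding integrin subunit, was the 1 of 14 integrin subunits that rose (0.95 ± 0.17, adjusted p = 0.0345), and it was lost without either TR2 library and passed in 10 of 20 settings.

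Members of signalling families moved in both directions. DUSP4, a phosphatase that shuts off MAP kinases, was the 1 of 21 MAPK feedback genes that passed. It had 434 and 364 with TR1 and 981 and 1020 with TR2 (log2 difference 1.33 ± 0.10, limma adjusted p = 0.000545), with the control libraries at 1961 and 1771. INHBB, the activin beta-B subunit, had 517 and 475 with TR1 and 894 and 976 with TR2 (0.91 ± 0.08, adjusted p = 0.00143). With TGFB3 it made 2 rises and 0 falls among 28 TGF-beta and activin genes (median -0.06). Of 22 BMP and ID genes, the ligand BMP4 rose (0.65 ± 0.10), while GDF15, a stress-induced ligand, and BMPER, a BMP-binding regulator, fell (-1.08 ± 0.18 and -0.95 ± 0.15). LFNG, a glycosyltransferase that modifies Notch, rose (0.84 ± 0.10) as the 1 of 12 Notch genes. EPHB3 fell (-0.48 ± 0.08) as the 1 other of 18 ephrin receptors and ephrins to pass beside EPHA4, and FGF12 fell (-1.39 ± 0.22) as the 1 of 13 GDNF and FGF genes. Of 26 Wnt antagonists, receptors and feedback genes, SFRP1 and DACT1 fell, and AXIN2, a feedback target of the pathway, did not pass (-0.55, adjusted p = 0.46). DUSP4 and INHBB held in all 20 settings. TGFB3, BMP4, GDF15, BMPER, LFNG, EPHB3 and FGF12 were lost without either TR2 library. GDF15 and EPHB3 passed in 10 of 20 settings, FGF12 in 14 of the 19 that tested it and the other 4 in 14 to 17 of 20.

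CXCL14 was the 1 of 18 chemokines, cytokines and receptors that passed. Of 34 interferon-stimulated genes, LGALS3BP (608 and 530 with TR1, 331 and 340 with TR2) and MX1, an antiviral GTPase (923 and 967 with TR1, 690 and 622 with TR2), fell and 0 rose (list median -0.22). Their log2 differences were -0.76 ± 0.14 and -0.53 ± 0.08 (limma adjusted p = 0.0358 and 0.0219). Of 17 heat shock and chaperone genes, HSPB8 rose (52.4 and 38.5 with TR1, 106 and 119 with TR2, 1.30 ± 0.16) and HSPB1 fell (22267 and 20714 with TR1, 16158 and 14882 with TR2, -0.47 ± 0.06). Both code for small heat shock proteins, and the control libraries stood nearer TR2 for HSPB1 (13992 and 14965) and further above it for HSPB8 (314 and 357). DDIT4, a stress-induced inhibitor of mTOR signalling, fell (-0.65 ± 0.10) as the 1 of 30 stress response genes to pass, and FDFT1, squalene synthase, rose (0.36 ± 0.07) as the 1 of 30 sterol and fatty acid synthesis genes. These 6 genes were lost without either TR2 library, and of 20 settings FDFT1 passed in 8, MX1 in 10, LGALS3BP in 11 and the other 3 in 15 to 17. No gene passed among 46 cell cycle and replication genes (median 0.11), 38 ribosomal protein genes, 29 hypoxia and glycolysis genes, 29 long structural and cytoskeletal genes, 21 immediate early genes, 20 CCN family and YAP target genes, 18 antigen presentation genes, 13 mitochondrially encoded genes or 11 ERBB receptors and ligands. At an unadjusted limma p under 0.05 the cell cycle list had 6 genes higher and 0 lower, the histone list 4 and 0, the long structural list 0 and 5, the CCN and YAP list 1 and 5, the epithelial junction list 1 and 4 and the progestin list 1 and 3. Each of the other lists without a call had at most 3 in a direction. Beside these counts, 1497 of all genes tested (10.1%) had an unadjusted limma p under 0.05 in either direction. For 15 replication-dependent histone genes the median was 0.41 with 0 past the threshold, and their median difference between the TR1 libraries was 0.26.

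Each variant was also set against the control plasmid in the same fit. These comparisons share the TR1 or TR2 libraries with the one above, so the values are given side by side only. Of the 94 genes lower with TR2 than with TR1, 93 were higher with TR1 than with the control and 29 were higher with TR2 than with the control (limma, adjusted p under 0.05). Of the 87 genes higher with TR2, 84 were lower with TR1 than with the control and 23 were lower with TR2 than with the control. Over all genes tested, TR1 had 731 genes higher and 847 lower than the control, and TR2 had 78 higher and 59 lower. CXCL14 was higher by 7.13 with TR1 and by 3.70 with TR2 on the log2 scale, and AZGP1 by 4.36 and 3.09. For ACTA2 the difference from the control was 1.70 with TR1 (adjusted p = 2.1e-05) and 0.03 with TR2 (0.878). EPHA4 was lower by 3.81 with TR1 and by 1.34 with TR2, and DUSP4 by 2.23 and 0.90. The TR2 mean lay between the control mean and the TR1 mean in 78 of the 87 higher genes and 78 of the 94 lower genes, against 8144 of the 14881 genes tested (54.7%). As TR1 enters both the choice of the genes and this order, the shares are a description with no test.

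Markers of other cell types were at low levels, and some moved with the comparison. Of 9 fibroblast markers, 7 were measured and 4 tested, of which DCN alone passed, beside 1.22% of all genes tested. COL3A1 did not pass, and LUM was not tested. No library had a read of COL1A2 (0 reads), while COL1A1 had 243 and 245 reads with TR1 and 308 and 278 with TR2. The summed normalized count of the fibroblast markers was 357 and 327 with TR1, 296 and 272 with TR2, and 396 to 447 in the other libraries. DCN fell with TR2 as given above, while COL3A1 (21 and 22 reads with TR1, 4 and 4 with TR2) and LUM (8 and 33 reads with TR1, 0 and 0 with TR2) were at 0 reads in the control and wild-type libraries. Of 8 leukocyte markers, 6 were measured, with sums of 56.0 to 84.4 in all libraries, and 5 of the 6 had at most 3 reads in any library. Endothelial markers summed to at most 10.7 and adipocyte markers to 107 to 167. The part of other cells in the differences was not tested.

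The genes that stood highest in TR1 replicate 2 against replicate 1 did not pass the comparison of TR2 with TR1. The gap is part of the spread that the test uses, so this outcome was largely fixed in advance. MALAT1, a nuclear long non-coding RNA, had 10348 in TR1 replicate 1 and 36071 in TR1 replicate 2, with the TR2 libraries between them at 19676 and 19611. INO80D, a subunit of the INO80 remodeller, had 80.5 and 289 with TR1 and 158 and 170 with TR2. EXPH5, ZNF525, RLF and C18orf54 had the same order, with the TR2 libraries between the TR1 libraries. These 6 genes, the highest in TR1 replicate 2 against replicate 1 with a mean of 100 or more over the 4 libraries, were chosen for this gap and are given with no test of it. Those with the lowest ratio were ASMTL, LIN28A, PECR, PXDC1, MCAM and MYL5, of which LIN28A alone passed the comparison of TR2 with TR1. MCAM, a cell adhesion molecule, had 114 and 77.8 with TR1 and 107 and 116 with TR2. PGR, the progesterone receptor, had 7826 in TR1 replicate 1 and 18201 in TR1 replicate 2, and 9169 and 10392 with TR2. Its log2 difference was -0.29 ± 0.30 (limma adjusted p = 0.883). Without TR1 replicate 1 the log2 difference was -0.90, with TR2 lower, and without TR1 replicate 2 it was 0.32, with TR2 higher. The direction for PGR thus rested on which TR1 library was kept.

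In all, 23 genes passed in the same direction under every one of the alternatives in which they were tested, 9 higher and 14 lower with TR2. Those described above include EPHA4, LIN28A, TMTC1, SLC24A3, SHISA2, DUSP4 and INHBB among the rises and CXCL14, ACTA2, AZGP1, TRIM29, S100A1, SLC22A23 and THBS1 among the falls. A further 8 lay outside the selection rule and were chosen after their values were seen. JAK1, a kinase of cytokine receptors, had 5428 and 4812 with TR1 and 2488 and 2721 with TR2 (-0.97 ± 0.08, limma adjusted p = 0.000611). GABRQ, a subunit of the GABA-A receptor, had 1571 and 1447 with TR1 and 481 and 490 with TR2 (-1.63 ± 0.10, adjusted p = 0.000188). KCNMA1, the pore of the large-conductance potassium channel, had 193 and 177 with TR1 and 28.8 and 27.8 with TR2 (-2.66 ± 0.20, adjusted p = 0.000557). ZNF703, a zinc finger protein of luminal breast cancer, had 370 and 381 with TR1 and 165 and 181 with TR2 (-1.11 ± 0.11, adjusted p = 0.00189). On the log2 scale RIMS4, a presynaptic scaffold, fell by 1.24 and LINC01016, a long non-coding RNA, fell by 2.32, while TRIL, a cofactor of Toll-like receptors, and RP11-369C8.1, a gene known by its clone name, rose by 0.97 and 2.73.

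**Figure D4:**
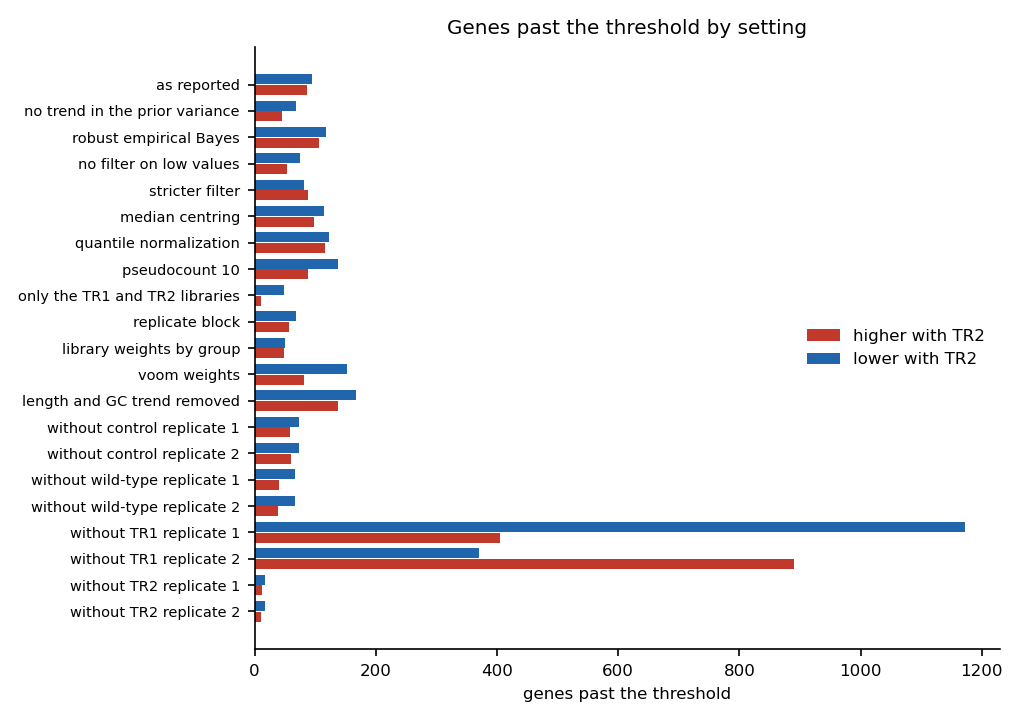
Number of genes past the threshold, higher (red) and lower (blue) with TR2, for the reported fit and 20 alternative settings. The counts are largest without TR1 replicate 1 (1577) and without TR1 replicate 2 (1260), which lean in opposite directions, and smallest without a TR2 library (30 and 29).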

How the data were processed

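RNA-seq was made from 8 libraries of T47D cells, 2 per plasmid, with a strand-specific kit (KAPA Stranded) per the labels' protocols. The authors deposited 1 table of log2 values, log2 of a normalized count plus 1, for 28859 gene symbols. Per the submitters' processing notes, TopHat, HTSeq and hg38 were used; versions, the annotation, the strand setting and the method behind the library factors are not given in the sources used here. Normalized counts were recovered as 2 to the power of the value, minus 1, and they fell on whole multiples of 1 step per library (tolerance 0.01 reads), which gave the read numbers. Without a stated strand setting, reads of overlapping or antisense genes were not told apart.

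Genes with at least 10 normalized counts in at least 2 libraries were tested with limma 3.58.1 (R 4.3.3) on the deposited log2 values (pseudocount 1), so that fold changes of low genes are understated. All 8 libraries entered 1 fit with the group as the only term and a trend in the prior variance (4 residual and 4.69 prior degrees of freedom). The two-sided p-values had Benjamini-Hochberg adjustment over the 14881 genes and a threshold of 0.05. Standard errors come from that fit. For genes at 0 reads a floor of 3 reads per library was used, and intervals of read ratios are exact binomial ones at 95% for counting error only. The method was tested on simulated data in which all libraries had the same spread and no shift with GC content. That test thus did not cover the gap between the TR1 libraries. Python 3.11.15 with numpy 2.4.6, pandas 2.3.3, scipy 1.17.1 and matplotlib 3.10.9 was used for the summaries.

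The genes described were GATA3, the 12 largest rises and 12 largest falls, the 8 largest of each at a mean of 1000 or more, up to 4 members of each gene list past the threshold, a set of luminal and mesenchymal genes, and 6 genes at each end of the difference between the TR1 libraries. The rule gave 88 genes, 67 past the threshold, and clone-like names were left out of the largest changes. The comparison, the members and the lists were chosen with earlier results of these data known. Gene coordinates, lengths and GC content come from GENCODE release 29 (hg38), which held 19969 of the symbols, and promoters from RefSeq (GRCh38.p14). Spreadsheet software had turned 15 symbols into dates, 12 of them tested. Alternatives were other variance priors, filters, scalings, pseudocounts and weights, a replicate block, a fit on the 4 libraries alone, removal of length and GC trends, voom weights on the recovered reads, and leaving out each library. Some of the selected genes and markers are not reported here, but they stay in the counts, sums and ranges.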

Additional observations from a re-analysis of the deposited data

How the results depend on the processing

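The number of genes past the threshold, 181 (87 higher, 94 lower), was within 1.5 times of that value under 8 of the 12 settings that kept the tested groups whole: 129 without a filter, 170 with the stricter filter, 213 with median centring, 239 with quantile normalization, 225 with a robust prior or with pseudocount 10, 234 with voom weights on the recovered reads (82 higher, 152 lower) and 125 with the replicate block. It was 114 with no trend in the prior variance, 59 with only the TR1 and TR2 libraries (11 higher, 48 lower), 98 with library weights by group and 305 with the length and GC trends removed. Leaving out 1 library gave 29 to 1577 genes. The share of higher genes moved by over 10 percentage points in some fits. It was lowest with only the TR1 and TR2 libraries, at 18.6% against 48.1% in the reported fit. With voom weights it was 35.0%. The split leaned to lower without TR1 replicate 1 (405 higher, 1172 lower), without TR2 replicate 2 (11 and 18), and without wild-type replicate 1 (40 and 67) or 2 (39 and 67). It leaned to higher without TR1 replicate 2 (890 and 370). A smaller lean to lower was seen without TR2 replicate 1 (12 and 18) and with no trend (45 and 69), among others. The cause was not tested.

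Libraries with the same replicate number were not taken as paired: the correlation of their deviations was 0.148 between TR1 and TR2 and -0.0898 to -0.00107 between the other groups. The replicate block called 125 genes, of which 123 were among the 181.

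The direction turned for 6 genes that had not passed. Without TR1 replicate 1 and without TR1 replicate 2 the log2 differences were -0.90 and 0.32 for PGR, -0.81 and 1.02 for INO80D, -0.75 and 1.08 for EXPH5, -0.88 and 0.92 for MALAT1, -0.81 and 0.95 for RLF, and -0.92 and 0.86 for ZNF525. The cause was not tested.

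With 2 libraries per group, small changes and genes of few reads were at the limit of the test. Over the genes described, 303 of the values under an alternative lost the threshold and 13 gained it in the same direction. A further 6 turned direction, as given above, while 1385 stayed on their side. The settings with the most losses were those without a TR2 library, with 47 of the 67 genes past the threshold lost in each case, followed by the fit with only the TR1 and TR2 libraries, with 36. Median centring took EPHB3, FDFT1, HSPB1, IGFBP5, IRF8, SPDEF and STC2 over the threshold (limma adjusted p 0.0509 to 0.42).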

Other observations

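Some enzyme and channel families, looked at after their values were seen, had members past the threshold. The share over all genes tested was 1.22%. Of 11 sialyltransferases tested, which add sialic acid to glycans, ST6GALNAC2 (log2 difference 0.62), ST3GAL1 (0.61) and ST6GAL1 (0.46) rose with TR2 and 0 fell, with a family median of 0.05. Of 11 polypeptide GalNAc-transferases, which start O-glycans, GALNT12 rose (0.83) and 0 fell. Of 12 S100 calcium-binding proteins, S100A6 and S100A10 (0.36) rose and S100A1 fell. Of 33 potassium channel subunits, KCNMA1 and KCNF1 fell and 0 rose. Of 9 annexins, ANXA6 rose and 0 fell. Of 20 alternative settings, S100A10 passed in 8, ST6GAL1 in 10, ST3GAL1 in 14, ST6GALNAC2 in 15 and GALNT12 in 16.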
